A study of Mus musculus with 4 samples.

Results

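Head-to-head gene pairs are neighbouring genes on opposite strands that are transcribed away from each other from starts a short distance apart. They were taken here from cap analysis of gene expression (CAGE), which sequences the capped 5′ ends of RNA and so counts tags at transcription starts. For each gene the cluster of start sites with the largest mean level over the libraries was its top cluster, and a mean of at least 1 CPM (tags scaled to a common library total) was required. A pair was kept when the top clusters lay on opposite strands, the minus-strand one on the left, with 0 to 500 bp between their facing edges. The rule found 891 pairs of gene names. Some clusters are listed under several genes, so these are 807 distinct pairs of clusters, and all counts of pairs that follow are of these 807. They hold 1613 of the 14718 distinct top clusters (11%), and 1691 of the 15248 genes that reached the minimum carry a name in a pair. Levels and positions chose the pairs, so the short gap and the minimum level are properties of the rule.

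The 4 libraries form 1 group: lesional facial skin of C57BL/6 mice at postnatal day 28 with the genotype Nectin-cre(+);Ikk2FL/FL;Postn-/-. All of them therefore carry a Cre transgene, a floxed Ikk2 gene (a kinase of the NF-kappa B pathway) and a null allele of periostin, a matrix protein, and there is no control genotype, untouched skin or treatment to compare with. The promoter is spelled Nectin in the labels, which do not say in which cells it is active. The sample codes join libraries 1 and 2, and libraries 3 and 4, by their first part, and no label says whether the samples came from separate animals, so p-values measure the spread between these samples only, which may be technical.

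Library totals over all entries, in which a cluster counts once for each gene it is listed under, ran from 17630119 to 18823630 tags. On this base 1 tag was worth 0.0531 to 0.0567 CPM. Distinct clusters held 16492915 to 17691558 tags. Defining keratinocyte markers (8 of 8 listed, summed level 6580 to 9950 CPM) and fibroblast markers (6 of 6, 3220 to 6120 CPM) were present in all 4 libraries. Gland markers summed to 40700 CPM in library 2 and 8710 CPM in library 4 against 9.13 and 0.113 CPM in libraries 1 and 3, and hair shaft markers to 3350 and 3180 CPM in libraries 1 and 2 against 905 and 421 CPM in libraries 3 and 4. No gland or hair shaft gene of the lists used here is a side of a head-to-head pair, and the results below are also given with libraries 1 and 3 alone where that changes them.

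In mammals such arrangements are common. Many lie in a CpG island, a stretch of DNA rich in unmethylated CG, where RNA polymerase can start in either direction from separate core promoters that share the sequence between them. The best known join housekeeping genes (DNA repair, chaperones, mitochondrial proteins) or the H2A and H2B histone genes, whose products are needed together when DNA is copied, and many others join a protein-coding gene to a long noncoding RNA.

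The DNA between the clusters is shown for pairs on which the results turn. These bases come from RefSeq promoter windows of GRCm38.p6, are written 5′ to 3′ on the plus strand from the left cluster's edge to the right cluster's edge, lie outside annotated exons, and have matches to the motifs searched in capitals on either strand. The submitters' processing notes name mm9, but the cluster positions fit GRCm38: in 705 of the 807 pairs (87.4%) both clusters lie within 100 bp of a GENCODE M21 start of their gene. Each run is 1 base shorter than the gap given in the text. The first 3 are gaps of histone pairs on chromosome 13, which were among the pairs with the most tags, with capitals for CCAAT or ATTGG, for the octamer as ATTTGCAT, for the CRE as TGACGTCA and for TATAAA, the element known as the TATA box:
H2ac11/H2bc11 (chr13:22042979-22043193): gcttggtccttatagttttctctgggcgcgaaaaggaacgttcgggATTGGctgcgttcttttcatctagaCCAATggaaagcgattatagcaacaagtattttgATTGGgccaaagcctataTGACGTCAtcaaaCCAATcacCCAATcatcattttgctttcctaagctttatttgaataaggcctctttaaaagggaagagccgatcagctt
H2ac12/H2bc12 (chr13:22035615-22035834): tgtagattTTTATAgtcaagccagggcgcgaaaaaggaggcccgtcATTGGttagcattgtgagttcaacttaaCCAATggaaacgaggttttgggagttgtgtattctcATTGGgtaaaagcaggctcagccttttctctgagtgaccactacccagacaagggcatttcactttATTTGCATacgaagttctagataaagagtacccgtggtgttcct
H2ac6/H2bc4 (chr13:23683967-23684136): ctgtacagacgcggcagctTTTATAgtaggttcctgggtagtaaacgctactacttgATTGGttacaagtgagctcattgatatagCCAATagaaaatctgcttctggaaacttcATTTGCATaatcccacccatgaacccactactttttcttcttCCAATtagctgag
The next 4 lie between a DNA repair gene and its neighbour. Capitals mark CCAAT boxes and GC boxes (GGGCGG, or CCGCCC on the other strand):
Atm/Npat (chr9:53536819-53536919): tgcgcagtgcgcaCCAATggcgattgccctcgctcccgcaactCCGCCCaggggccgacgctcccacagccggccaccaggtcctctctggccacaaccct
Osgep/Apex1 (chr14:50924915-50924948): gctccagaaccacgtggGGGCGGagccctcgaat
Pms1/Ormdl1 (chr1:53297040-53297066): ggATTGGcgcggctggcagCCAATcgg
Rpa3/Umad1 (chr6:8259184-8259266): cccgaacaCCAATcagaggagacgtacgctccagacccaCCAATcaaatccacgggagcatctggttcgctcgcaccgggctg
The last pair of gaps separates sides of very unequal level, with capitals for the same motifs as the group before, of which the Dbi gap holds no match:
Actg1/0610009L18Rik (chr11:120348556-120348656): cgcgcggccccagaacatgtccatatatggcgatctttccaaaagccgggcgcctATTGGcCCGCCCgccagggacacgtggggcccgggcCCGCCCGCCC
Dbi/3110009E18Rik (chr1:120121111-120121136): ctttcgggggcgtgtccatcctagcg
All 13 gaps between an H2A and an H2B gene held a CCAAT box, 6 held a TATA box and 5 the octamer. Over the 433 gaps that could be read whole, these 13 among them, 37.9% held a CCAAT box, 38.3% a GC box, 3.93% a TATA box and 1.39% the octamer. The median GC content of the 433 gaps was 63.6%. The shares were not adjusted for the length or base content of the gaps, in which the histone gaps differ from many others. A match describes letters and is not a measured binding site.

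Gaps were short within the limit. The median was 102 bp and the middle 50% lay between 37 and 232.5 bp, and 267 pairs (33.1%) had less than 50 bp between the clusters. Both sides were protein-coding in 524 pairs (64.9%), 256 pairs (31.7%) joined a protein-coding gene to a long noncoding RNA, and 27 were of other classes, such as small RNA genes and pseudogenes. The median gap was 120.5 bp between coding genes and 73.0 bp where 1 side was a long noncoding RNA. In 3 pairs the edges met at a gap of 0 bp, namely Pigx/Cep19, Sdhaf2/Cpsf7 and Gm14022/Ttl. Just inside the limit lay Slc5a6/Atraid at 497 bp, Gm11408/Gm11410 at 499 bp and Ndufaf3/4833445I07Rik at 500 bp, and just outside it Ppp2r3c/Prorp at 502 bp and Ino80e/Hirip3 at 507 bp. At the level limit, Gm47438 (1.004 CPM) was just inside and the lower side of Acot8/Zswim3 (0.9975 CPM) just outside. Some well-known pairs missed the rule: the clusters of Col4a1 and Col4a2, the chains of type IV collagen, overlapped by 41 bp, those of Surf1/Surf2 and Ndufs3/Kbtbd4 by 18 bp each, and those of Brca1 and Nbr1 lay 827 bp apart.

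**Figure D1:**
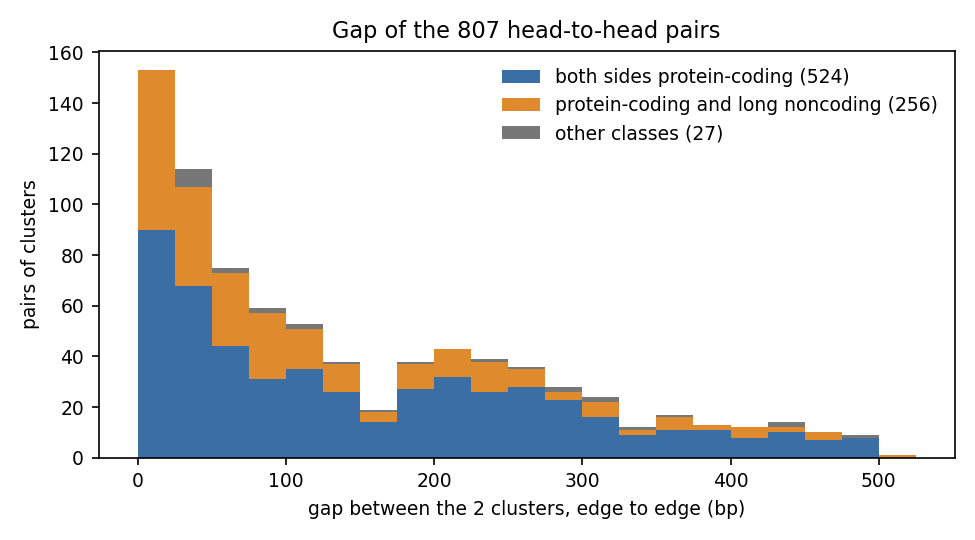
Histogram of the edge-to-edge gap in bp (x axis, bins of 25 bp) against the number of distinct cluster pairs (y axis), stacked by the class of the 2 genes. Most pairs sit at the left, where 267 of 807 have a gap under 50 bp.

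The 2 sides seldom had equal levels. CAGE counts 1 tag per RNA start whatever the gene's length, so levels of different genes can be set side by side in CPM. The median lower side had 7.94 CPM and the median higher side 43.6 CPM, and the median pair differed 4.67-fold (log2 ratio 2.22). Sides lay within 2-fold of each other in 210 pairs (26.0%) and at least 10-fold apart in 254 (31.5%). By limma on the log2 ratio within each library, the sides of 758 of 807 pairs (93.9%) differed at an adjusted p under 0.05, and in 756 of these the same side was higher in all 4 libraries. Among all 14698 neighbouring pairs of top clusters, of any orientation and distance, the share called was 91.7%, so a call for unequal sides is usual between any neighbours and is not particular to head-to-head pairs. The median log2 ratio was 1.87 for divergent neighbours farther apart, 1.85 for neighbours on the same strand and 1.93 for convergent ones, below the 2.22 of head-to-head pairs, without a test of that difference. It depends on the level required: among pairs whose lower side had at least 5 CPM the head-to-head median was 1.44, against 1.38 to 1.39 in the other classes. With a lower side of 20 CPM or more the order turned, at 0.88 against 0.90 to 0.96.

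**Figure D2:**
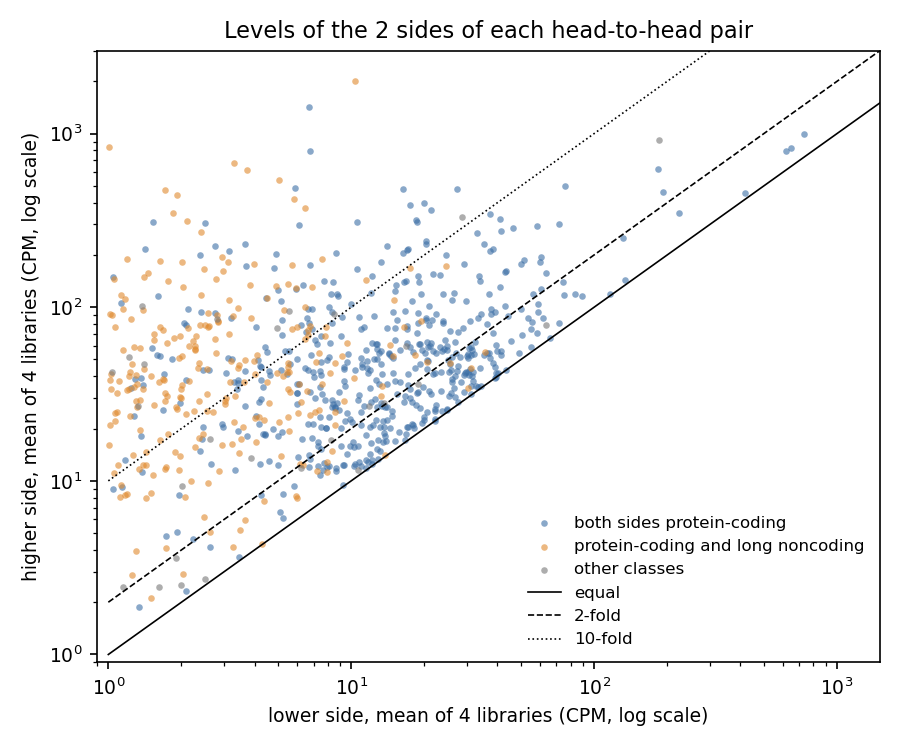
Each point is a head-to-head pair, with the mean CPM over 4 libraries of its lower side (x axis) and higher side (y axis), both on log scales, coloured by gene class. Lines mark equal, 2-fold and 10-fold levels. Most pairs of coding genes lie above the 2-fold line. Pairs with a long noncoding RNA tend to lie to the left, with a median lower side of 2.587 CPM against 13.22 CPM between coding genes.

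Gene class went with how uneven a pair was. Between coding genes the median difference was 3.05-fold, with 182 of 524 pairs (34.7%) within 2-fold. Where a coding gene faced a long noncoding RNA it was 12.9-fold, with 20 of 256 (7.81%) within 2-fold. The coding side was the higher one in 245 of these 256 pairs (95.7%), with a median of 38.15 CPM against 2.645 CPM for the noncoding side. Whether long noncoding RNAs at other distances stand in the same relation to their coding neighbours was not tested.

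The lists of genes had unequal shares in head-to-head pairs, to be read against 11% of all top clusters. Of 125 top clusters of DNA repair and replication genes 45 (36.0%) were a side of a pair, of 71 histone clusters 27 (38.0%, among them the antisense-named H3f3aos, which the name pattern of the list took in, while it missed H2bu1-ps/H2aw), of 78 mitochondrial ribosomal protein clusters 20 (25.6%) and of 105 clusters of the respiratory chain and ATP synthase with their assembly factors 26 (24.8%). Proteasome subunits had 8 of 45 (17.8%), aminoacyl-tRNA synthetases 6 of 37 (16.2%) and cytosolic ribosomal proteins 9 of 78 (11.5%), while zinc finger (Zfp) genes had 17 of 362 (4.7%). None of 29 keratinocyte, 16 fibroblast and matrix, 14 endothelial, 14 hair shaft, 10 gland or 10 melanocyte and Schwann cell clusters was in a pair. Of 21 immune clusters 2 (9.52%, the pair Psmb9/Tap1) and of 15 skeletal muscle clusters 1 (6.67%, Myh4) were members. These cell type lists are short, and their shares were not tested against 11%.

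**Figure D3:**
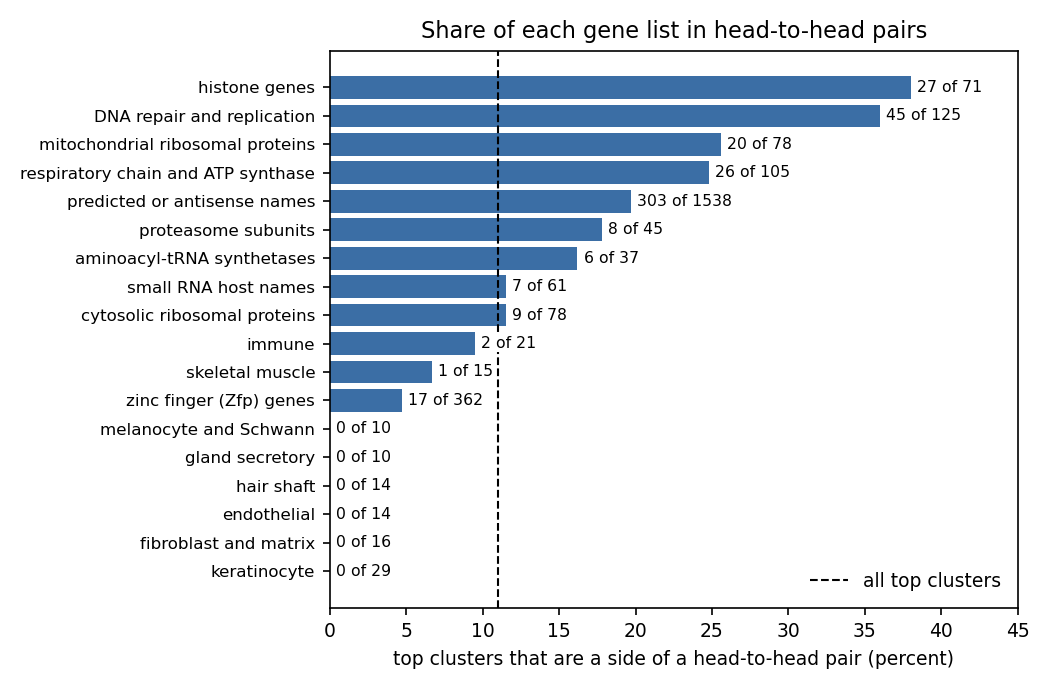
Percent of the top clusters of each gene list (y axis) that are a side of a head-to-head pair (x axis), with the counts beside the bars. The dashed line is the share over all 14718 top clusters, 11%; histone and DNA repair genes lie at 38.0% and 36.0% 6 cell type lists have no member, and the immune list, at 9.52%, lies close to the line.

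The histone pairs were the most abundant even pairs. In 13 pairs an H2A gene faced an H2B gene, whose products are partner subunits of the nucleosome. In 1 of them, H2bu1-ps/H2aw, the H2B side is named as a pseudogene, and in H2ac14/H2bc14 GENCODE classes the H2A side as an unprocessed pseudogene. H2ac12 had 777, 724, 664 and 761 CPM in libraries 1 to 4 and H2bc12 1065, 964, 882 and 1093 CPM. In every library H2bc12 was above H2ac12, and the ratio was 1.37-fold (95% interval 1.26 to 1.48, adjusted p 4.1e-05 by limma). H2ac11 had 642, 600, 553 and 670 CPM and H2bc11 838, 782, 715 and 833 CPM, a ratio of 1.29-fold (1.19 to 1.39). H2ac6 had 684, 627, 611 and 669 CPM and H2bc4 843, 797, 764 and 906 CPM, a ratio of 1.28-fold (1.18 to 1.38). In all 3 pairs both sides were lowest in library 3, and the H2B side was the higher one. H2ac8 and H2bc8, at mean levels of 453 and 420 CPM, did not pass the test (adjusted p 0.11 by limma, interval of the fold 0.981 to 1.18 for H2ac8 over H2bc8).

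Other histone pairs were uneven. H2ac20 had 313, 281, 291 and 330 CPM against 2.97, 2.28, 2.38 and 2.34 CPM for H2bc21, a 121-fold difference in favour of the H2A side. In H2ac14/H2bc14 the H2B side was 73.5-fold higher (mean 102 against 1.38 CPM) than the H2A side, which GENCODE classes as a pseudogene. H2ac13 exceeded H2bc13 2.4-fold and H2ac15 exceeded H2bc15 3.41-fold, so that neither histone was the higher one in every pair. Histone genes are near-identical copies of each other, and several of these clusters are listed under more than 1 gene, so tags could have been split between copies and the levels of single histone genes are uncertain.

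DNA repair and replication genes made up 43 pairs, mostly with a gene of another function. The sides of 37 pairs differed by limma (against the background share of 91.7%), the median log2 ratio was 1.31, 13 pairs lay within 2-fold, and the repair gene was the higher side in 16 of the 41 pairs with only 1 such gene. The pairs described next were picked from the list after their values were seen, apart from Atm/Npat, Osgep/Apex1, Mcm4/Prkdc and Fen1/Tmem258. Atm, the kinase that signals DNA breaks, had 16.3, 15.2, 18.6 and 19.2 CPM, and Npat, a coactivator of histone genes, 15.8, 17.5, 15.4 and 18 CPM. The ranges overlapped, and the test did not separate the sides (1.03-fold, interval 0.889 to 1.2, adjusted p 0.63 by limma). Osgep, a tRNA modification enzyme, had 37.9, 35.9, 38.7 and 44.2 CPM and Apex1, the endonuclease that cuts at abasic sites, 41.5, 36.3, 36.8 and 41.4 CPM. This was the most even pair of those with at least 5 CPM on the lower side, with an interval of 0.903 to 1.12 for the fold.

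Mcm4, a subunit of the replicative helicase, and Prkdc, the kinase of DNA end joining, were at 29.9, 29.3, 35.8 and 35.3 CPM and at 34.0, 30.2, 38.8 and 36.8 CPM. Prkdc was slightly above Mcm4 in every library, 1.07-fold (interval 0.970 to 1.19), which did not pass the test (adjusted p 0.15 by limma). Fen1, the flap endonuclease, had a mean of 31.2 CPM and Tmem258 53.4 CPM, a 1.71-fold difference in favour of Tmem258. Of genes for mismatch repair, Pms1 (mean 12.9 CPM) was below Ormdl1 (17.08 CPM) and Pms2 (12.1 CPM) below Aimp2 (28.4 CPM).

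In 4 pairs of the repair list the sides were at least 10-fold apart, and in 3 of these the repair gene was the lower side. Ddb1, a damage-binding protein and ubiquitin ligase adaptor, had 180, 171, 165 and 183 CPM against 5.89, 7.12, 6.47 and 7.69 CPM for Tkfc, a 25.8-fold difference. Recql4, a helicase, had a mean of 2.09 CPM against 38.1 CPM for Lrrc14, 18-fold higher. Xrcc3 and Palb2, of recombination repair, had means of 3.41 and 5.32 CPM and lay 11.1-fold below Zfyve21 and 10.5-fold below Dctn5. Rpa3, a subunit of the single-strand binding protein RPA, had 38.5, 31.6, 33.7 and 39.2 CPM and Umad1 18.4, 15.3, 16.0 and 18.7 CPM. Both sides were lowest in library 2 and highest in library 4, and their ratio, 2.09-fold, had an SD of 0.013 in log2. That SD lies below the 1st percentile of head-to-head pairs, 0.0321, and the pair was picked from many. The spread that counting of tags alone would give was not estimated. Fancd2, of the crosslink repair pathway, had a mean of 9.19 CPM and its neighbour Emc3, 1 bp away, 88.0 CPM.

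Genes of energy metabolism were mostly the higher side, and how often they exceed neighbours in other arrangements was not tested. In 21 of the 26 pairs with a gene of the respiratory chain, ATP synthase or their assembly that gene exceeded its neighbour, all 26 pairs were called (against 91.7% of all neighbouring pairs), and the median log2 ratio was 2.98. Ndufa4, a respiratory chain subunit, had 435, 437, 534 and 522 CPM against 15.2, 14.7, 17.7 and 17.9 CPM for Phf14, a chromatin protein. Both sides were higher in libraries 3 and 4 than in libraries 1 and 2, and the ratio was 29.4-fold. Atp5j, of ATP synthase, had a mean of 344 CPM and exceeded Gabpa, an ETS-family transcription factor, 9.21-fold. For mitochondrial ribosomal proteins the list gene was the higher side in 13 of 18 pairs with 1 such gene, with a median log2 ratio of 1.70. Ndufa4, Atp5j and the examples in the next sentence were picked after their values were seen. Mrpl37 exceeded Cyb5rl 46-fold, whereas Mrpl47 lay 23.6-fold below Ndufb5, a respiratory chain subunit.

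The pair of 2 mitochondrial ribosomal genes was Mrpl46/Mrps11. Mrpl46 had 44.3, 42.2, 40.9 and 40.5 CPM and Mrps11 15.8, 14.7, 14.1 and 14.8 CPM, a 2.82-fold difference with an SD of 0.039 in log2 over the libraries. Mrps12 and Sars2, a mitochondrial ribosomal protein and the mitochondrial seryl-tRNA synthetase, had 55.3, 55.4, 50.9 and 56.6 CPM and 26.6, 27.4, 25.6 and 27.9 CPM. Their ratio was 2.03-fold with an SD of 0.027. Head-to-head pairs had a median SD of 0.157 where the lower side had 5 to 20 CPM and 0.111 at 20 CPM or more. The spread from counting of tags alone was not estimated. Hspd1 and Hspe1, the chaperonin and cochaperonin of mitochondria, had 77.3, 73.6, 73.9 and 76.3 CPM and 116, 118, 116 and 121 CPM, a 1.57-fold difference (interval 1.44 to 1.71). Ppat and Paics, enzymes of purine synthesis, had means of 21.3 and 31.8 CPM (1.49-fold). Sirt3, a mitochondrial deacetylase, had a mean of 8.08 CPM and Psmd13, a proteasome subunit, 100.2 CPM (12.4-fold). Of the 9 pairs described in textbooks as head to head, 6 were called for unequal sides, against 91.7% of all neighbouring pairs. Sides lay within 2-fold in 6 of the 9, against 26.0% of all head-to-head pairs. All 9 join coding genes, and among head-to-head pairs of coding genes that share was 34.7%.

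All 9 cytosolic ribosomal protein genes in pairs were the higher side, with a median log2 ratio of 3.03. Whether such genes exceed neighbours in other arrangements as often was not tested. Rps2 had 2120, 1883, 2072 and 2001 CPM, the highest level of any side, against 11.3, 10.6, 10.9 and 8.81 CPM for Snhg9, a noncoding host of small nucleolar RNAs, a 194-fold difference. Rpl4 had 819, 809, 725 and 816 CPM against 7.92, 5.37, 7.37 and 6.52 CPM for Zwilch, a kinetochore protein (117-fold). Other pairs of high level were just as uneven. Dbi, the acyl-CoA binding protein, had 1470, 1466, 1376 and 1404 CPM across a gap of 27 bp from 3110009E18Rik, which had 7.81, 6.69, 5.45 and 6.86 CPM (214-fold). Tpt1, a translationally controlled protein, was 207-fold above Gm4285. Atp5b, of ATP synthase, was 819-fold above Gm47438, which stands just inside the level limit. Actg1, gamma actin, exceeded 0610009L18Rik 72.6-fold, and Pdia3, an endoplasmic reticulum chaperone, exceeded Catsper2, a sperm ion channel subunit, 83.5-fold. Histone variant gene H3f3a exceeded its antisense-named neighbour H3f3aos 273-fold. In Gm23119/Acaa2 the small RNA gene's cluster had a mean of 922 CPM and Acaa2, of fatty acid oxidation, 184 CPM; that cluster is listed under another gene too, and its tags cannot be told apart.

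Even pairs were also found outside these lists. Wdr3 had 23.4, 20.5, 22.2 and 22.2 CPM and Gdap2 22.9, 20.3, 23.2 and 22.4 CPM, with an interval of the fold of 0.905 to 1.12. Bcl2l12 had 29.9, 30.3, 34.2 and 31.6 CPM and Irf3, a transcription factor of the interferon response, 30.5, 27.4, 32.6 and 34.4 CPM, with an interval of 0.901 to 1.13 for Bcl2l12 over Irf3. Supt6/Sdf2, Tmx2/Med19 and Exosc8/Alg5 were the other 3 most even pairs, with gaps of 246, 269 and 405 bp, so the 6 most even pairs had gaps of 12 to 405 bp. With all clusters of each gene summed, 3 of them passed the test by limma: Supt6/Sdf2 (adjusted p 0.00069) and Osgep/Apex1 (0.0026), both with the other side higher, and Exosc8/Alg5 (2.7e-06).

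The immune pair was Psmb9/Tap1, a subunit of the immunoproteasome and a peptide transporter of antigen presentation, both known to be induced by interferon. Psmb9 had 16.1, 12.5, 20.2 and 18.3 CPM and Tap1 17.4, 14.1, 22.6 and 20.4 CPM. Each gene was lowest in library 2 and highest in library 3, and Tap1 was slightly higher in all 4 libraries. The ratio was 1.11-fold (interval 0.989 to 1.24, adjusted p 0.075 by limma) with an SD of 0.027 in log2. The median SD of head-to-head pairs with a lower side of 5 to 20 CPM was 0.157. With all clusters of each gene summed, Tap1 was the higher side by 0.73 in log2 (adjusted p 2.2e-05 by limma), since other starts of the genes then count. The summed immune markers had their lowest and highest levels, 37.6 and 52.5 CPM (4 of 4 listed), in libraries 2 and 3 as well, and their part in the result was not tested.

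The muscle pair was Myhas/Myh4, a noncoding RNA and a fast myosin heavy chain of skeletal muscle. Myh4 had 433, 351, 481 and 894 CPM and Myhas 4.46, 3.40, 4.59 and 7.64 CPM. Both sides were lowest in library 2 and highest in library 4, while their ratio, 105-fold (interval 87.7 to 125), had an SD of 0.11 in log2. The 4 muscle markers, all listed and with Myh4 among them, summed to 2290, 1700, 2700 and 4220 CPM in the same order of libraries, and the part of muscle tissue in the samples was not tested. In bulk samples fewer cells of a type and less RNA per cell cannot be told apart.

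**Figure D4:**
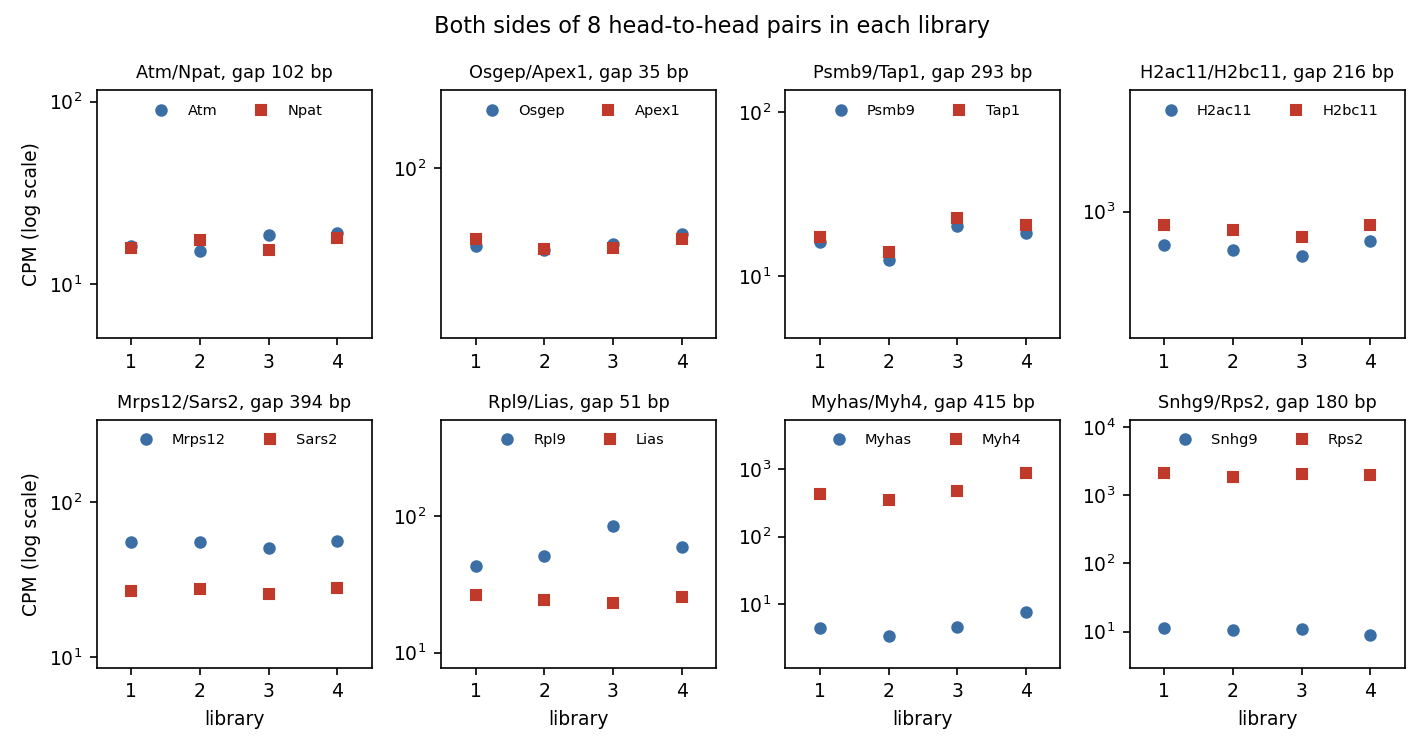
CPM on a log scale (y axis, own range in each panel) of both genes of 8 head-to-head pairs in libraries 1 to 4 (x axis), 1 point per gene and library. The sides of Psmb9/Tap1 and of Myhas/Myh4 shift together between libraries, and Rpl9 alone is higher in library 3.

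The ratio of the 2 sides was steady between libraries. A test of whether a pair's log2 ratio varied more than is usual at its level (an F test against the limma prior) called 0 of 807 head-to-head pairs, against 0.32% of all neighbouring pairs. A share that small leaves few calls for any set of this size. At an unadjusted p under 0.05 there were 2 pairs (0.248%), against 5.85% of all neighbouring pairs. The median SD of the log2 ratio was 0.169 for head-to-head pairs and 0.223 to 0.228 in the other classes of neighbours. In pairs whose lower side had 5 to 20 CPM it was 0.157 against 0.206 to 0.209, and at 20 CPM or more 0.111 against 0.143 to 0.147. These are descriptions of 4 libraries and the difference between classes was not tested. The members' own levels varied less too: 0 of 1613 member clusters were called for a level that varied between libraries, against 0.421% of all top clusters. At an unadjusted p under 0.05 it was 13 (0.806%) against 6.34%, and edgeR called 0 as well. The median SD of the log2 level was 0.105 for members and 0.130 for other top clusters, so a steady ratio came with steady sides.

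**Figure D5:**
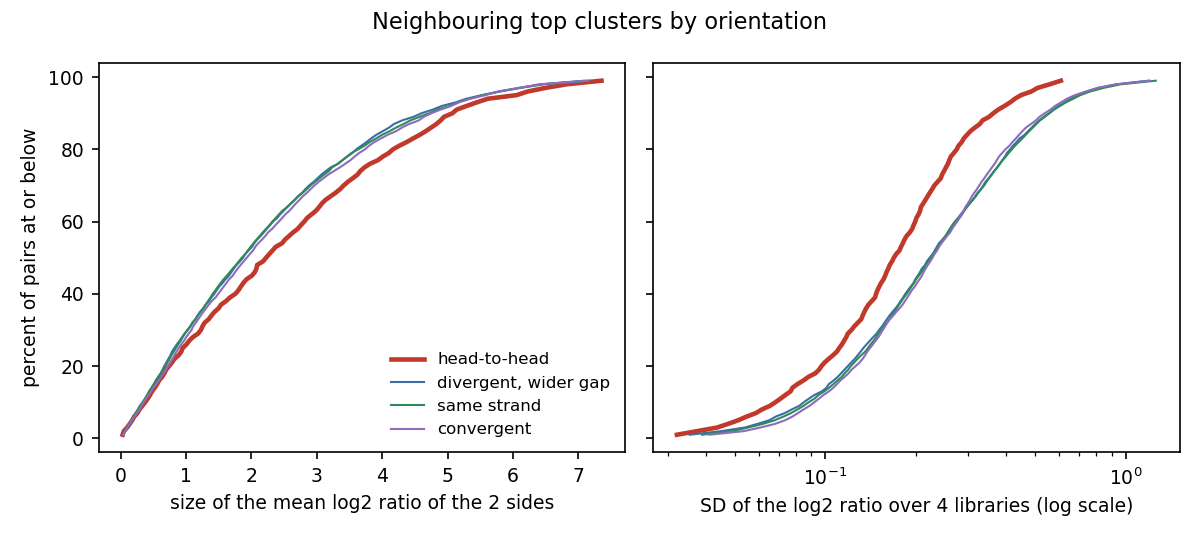
Cumulative percent of neighbouring cluster pairs (y axis) by the size of the mean log2 ratio of the sides (left) and by the SD of that ratio over 4 libraries on a log scale (right), from the 1st to the 99th percent, for head-to-head pairs and 3 other classes. Head-to-head pairs lie to the right in the left panel (median 2.22) and to the left in the right panel (median 0.169).

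Sides did not often peak together. Both sides were highest in the same library in 278 of 807 pairs (34.4%, exact binomial 95% interval 31.2 to 37.8%, which treats pairs as independent), against 32.6% to 33.8% in the other classes. With TMM scaling of the libraries the share was 29.1%, against 26.2% to 28.6% in the other classes.

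The widest range of the log2 ratio among pairs with at least 5 CPM on the lower side was that of Rpl9/Lias, a cytosolic ribosomal protein and the lipoic acid synthase. Rpl9 had 43.1, 51.4, 84.3 and 59.3 CPM and Lias 26.5, 24.2, 23.3 and 25.4 CPM. Rpl9 was highest in library 3, where Lias was lowest, and the adjusted p of the F test was 0.77. Rab2b/Tox4, Blzf1/Nme7, Nudt22/Trpt1, Scarna13/Glrx5 and Aamdc/Rsf1 followed with ranges of 0.80 to 0.91 in log2. Of these, Nudt22 had 4.68, 6.00, 5.50 and 4.18 CPM and Trpt1 5.72, 6.11, 6.86 and 7.64 CPM, and the call that Trpt1 was higher (1.30-fold, adjusted p 0.046 by limma) was lost without library 1, 3 or 4 and by edgeR and DESeq2, with adjusted p-values of 0.051 to 0.19 over the alternatives that lost it.

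Promoter windows were compared at equal length, 250 bases before to 50 bases after a RefSeq start within 50 bp of the cluster. The median gap was 102 bp, so a window of a pair often crosses the gap into the partner's start and transcribed sequence. Windows of other genes need not hold a second start, and the effect of this on the shares was not tested. A window was found for 667 of the 807 pairs (82.7%), 1 per pair and from the higher side where it had one. In these the median GC content was 64.0% and 93.1% had an observed over expected CpG of at least 0.6, against 53.0% and 36.1% over all 32544 distinct RefSeq windows, which include genes with few or no tags here. The same check against top clusters without a head-to-head partner was void, since 63.2% of them had a window. In the 8287 windows that these did have, 72.1% had that CpG value, 67.3% a GC box and 8.83% TATAAA, nearer to the pairs than to all windows. CCAAT, at 38.5%, and the ETS site, at 17.9%, lay nearer to all windows. A GC box was in 76.0% of the pairs' windows and 35.9% of all windows, CCAAT in 47.7% and 37.4%, and the ETS site CCGGAAG in 33.1% and 8.91%. The NRF1 site GCATGCGC was in 7.5% and 2.73%, the YY1 site AAGATGGCG in 5.55% and 1.41%, the CRE core TGACGT, which the full CRE contains, in 115 of the 667 windows against 7.55% of all, and the CGCG element CTCGCGAG in 4.5% and 0.928%. Other motifs were rarer in the pairs than overall: TATAAA was in 5.7% against 13.6% and the AP-1 site TGACTCA in 2.25% against 5.19%. The E2F site TTTCCCGC (2.4% against 1.08%), the full CRE (4.2% against 1.8%), the octamer (2.25% against 1.75%) and the kappa B site (0.15% against 0.157%) were each in few windows. The 8287 windows without a head-to-head partner held the E2F site in 2.1%, the full CRE in 3.48% and the NRF1 site in 5.5%. The YY1 site was in 3.09% of them, the CGCG element in 1.86%, the AP-1 site in 4.22% and the CRE core in 995 windows. Each of these shares lay between that of all windows and that of the pairs. The octamer (1.39%) and the kappa B site (0.181%) did not. In the 13 windows of the H2A and H2B pairs CCAAT was in 13, TATAAA in 7, the octamer in 6 and a GC box in 3, with a median GC content of 44.3%. In pairs with a gap of up to 100 bp 40.9% of windows held CCAAT and 2.99% TATAAA, and with wider gaps 54.5% and 8.43%. The wider group takes in all the H2A and H2B pairs except H2bu1-ps/H2aw, and the shares without them were not computed. Of the 433 gaps read whole, 5.54% held the ETS site and 0.462% the YY1 site, less than in the windows. These gap shares were not adjusted for length. Motifs were searched on both strands, and no match says only that these letters are not in the window.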

How the data were processed

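The authors deposited 1 table of CAGE clusters with CPM values for 4 libraries; per the submitters' processing notes BWA and HISAT2 were used, and no header or label records how clusters were made or joined to genes. The CPM steps gave whole tags for 100.0% of values (tolerance 0.05), and tests used these tags. The members and gene lists were chosen with earlier results of these data known. Gene classes and starts came from GENCODE M21, which holds 17828 of 17849 gene identifiers. Side ratios were log2 of tags plus 0.5, right over left, within each library, fitted with limma 3.58.1 (R 4.3.3, robust trended variance) over all neighbouring top clusters, two-sided, with Benjamini-Hochberg adjustment; levels used log2(CPM + 1) with TMM scaling. Count tests with edgeR 4.0.16 and DESeq2 1.42.0, which take the library as a block, were alternatives: edgeR called 748 and DESeq2 739 of the 807 pairs. Steps were also run on simulated tags, drawn independently for each side with 1 set dispersion that was not estimated from these data.

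The pairs named were the 12 with most tags, the 6 most even, 6 most uneven and 6 most variable with a lower side of at least 5 CPM, pairs within 1 list or known from textbooks, pairs with a skin marker gene, and those at the limits of the rule; others were chosen after their values were seen, as stated. A cluster listed under several genes carried the established name first. A few pairs that meet this rule are not reported here.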

Additional observations from a re-analysis of the deposited data

Results flagged for a closer look

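Of 52 pairs named, 3 had a log2 ratio (right over left) in 1 library far from the other 3 by Dixon's criterion for 4 samples; chance alone gives about 1 in 20. Tmx2/Med19 had -0.32 in library 3 against 0.09 to 0.16 in the others, Gm11408/Gm11410 had 0.96 in library 2 against 1.24 to 1.28, and Ndufaf3/4833445I07Rik had -3.42 in library 2 against -2.82 to -2.73. The last 2 also stand just inside the gap limit of the rule.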

How the results depend on the processing

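No paired analysis was possible because the 4 libraries form 1 group; the ratio of the sides is itself taken within each library. Without each library in turn 742 to 748 pairs had sides that differed, and 736 of the 758 were called in all of these fits. With libraries 1 and 3 alone, chosen after seeing the data, 720 pairs had sides that differed. The main fit takes the 4 libraries as separate samples, whereas libraries 1 and 3 differ in the first part of their sample code. Calls for a varying ratio or level stayed at 0 among members. Requiring 5 CPM left 578 gene pairs, with 476 of 519 distinct pairs called (91.7%, against 90.0% of all neighbours). The median log2 ratio was 1.44 at that minimum, 3.03 with no minimum, 2.34 with gaps up to 300 bp and 2.16 with gaps up to 1000 bp. The share of pairs with both sides highest in the same library was 29.1% with TMM scaling, and 40.0 to 46.7% without each library in turn, where fewer libraries can be the highest.

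Of 788 alternative values for the 52 named pairs, 760 kept their direction and side of the threshold. Direction turned in 8 of the 52 pairs, of which Sdhaf2/Cpsf7 (-0.39) alone had been called. Without each library in turn the log2 ratio (right over left) was -0.01 to 0.07 for Supt6/Sdf2, -0.05 to 0.02 for Osgep/Apex1, -0.04 to 0.12 for Tmx2/Med19, -0.07 to 0.02 for Exosc8/Alg5, -0.01 to 0.02 for Wdr3/Gdap2, -0.06 to 0.03 for Bcl2l12/Irf3 and -0.13 to 0.02 for Atm/Npat. With libraries 1 and 3 alone it was -0.08 for Supt6/Sdf2, 0.03 for Osgep/Apex1 and -0.12 for Tmx2/Med19. With all clusters of a gene summed it was -0.35 for Supt6/Sdf2 and 0.31 for Osgep/Apex1, both now past the threshold (adjusted p 0.00069 and 0.0026 by limma), and 0.03 for Sdhaf2/Cpsf7, which lost its call (adjusted p 0.71). With all clusters summed Exosc8/Alg5 also became uneven (-1.01). Depth limits the lower sides near 1 CPM, which rest on few tags per library.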

Other observations

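A few pairs of a transcription factor gene were picked after their values were seen; no list of such genes was counted, so they stand as single pairs. Foxe1, a forkhead factor known from the thyroid and the palate, had 61.7, 56.3, 41.2 and 59.9 CPM and its neighbour Gm12446 8.53, 7.33, 5.33 and 8.36 CPM. Both sides were lowest in library 3, and the ratio was 7.42-fold with an SD of 0.056 in log2. Irx2, an Iroquois homeobox factor, had 49.9, 44.3, 55.4 and 59.9 CPM against 14.7, 11.9, 15.5 and 17.3 CPM for Gm20554, with both sides lowest in library 2 and highest in library 4. Sox21, an SRY-box factor of the hair follicle, had 83.3, 69.5, 59.7 and 85.4 CPM, while Gm4675 stayed between 5.50 and 6.08 CPM. Cebpa, a factor of differentiation in epidermis and fat, was 93.2-fold above Gm45091, which was near the minimum level. Foxm1, a cell cycle factor, and Rhno1, of the response to replication stress, were a nearly even coding pair at means of 19.2 and 26.3 CPM.

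Member clusters whose level varied most between libraries, by unadjusted p, were those of Ccser1 (56.3, 46.7, 25.5 and 34.7 CPM) and Myh4. Ccser1 was lower in libraries 3 and 4 than in libraries 1 and 2, with an adjusted p of 0.33 by limma's F test, and its neighbour A730020E08Rik was near the minimum level.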
